A study of Mus musculus with 9 samples.

Results

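The interferon response genes examined here are 42 genes listed by function: the chains of the type I interferon receptor, the transcription factors that act below it, sensors of foreign nucleic acid and the antiviral effectors that interferon induces. A gene was measured where the array held a row for it alone, which was so for 38 of the 42, on 39 rows out of 21789 rows that carry a single gene. Irf1 had 2 rows. Isg15, Gbp2 and Igtp share their rows with a second gene, and Ifi44 had no row, so these 4 genes were not analysed here. Type I interferons bind Ifnar1 and Ifnar2, and the signal passes through a complex that holds Stat2 and Irf9 to a promoter element called ISRE, which switches on most of the genes below. Interferon gamma uses another receptor and drives genes such as the immunity-related GTPases, in part through Irf1. Many of these genes also have a basal level in cells that meet no virus, and that level differs between cell types.

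Expression was read on 9 arrays from bone marrow of C57Bl/6J mice. The sort for CD45-Lin-CD54+BP1+ selects against blood cells by CD45 and lineage markers, and the cells it leaves are called stroma here. 3 arrays held the YFP-positive part of this gate from mice that were IL7-Cre transgenic and heterozygous for Rosa-eYFP, and 1 array held its YFP-negative part from mice of the same genotype. In these mice YFP marks a cell in which the Il7-driven Cre is, or was, active. Another 3 arrays held the whole gate from wild-type mice, and 2 arrays held total bone marrow cells of wild-type mice. Mice used for sorting were 6 to 12 weeks old, and no age in weeks is given for those of total marrow. A sorted sample held 1800 to 10000 cells (2300 for the YFP-negative one), and for total marrow 10 ng of RNA was taken. No treatment is recorded, and whether the mice or cells met any other stimulus is not given. The labels do not say whether replicates came from separate animals or pools, so p-values reflect only how far these samples scatter, which may be technical.

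The stromal markers Lepr, Cxcl12, Kitl, Pdgfra, Pdgfrb, Ebf3, Foxc1 and Adipoq were all high in the sorted cells. Their mean log2 signal was 10.68 to 10.92 in YFP-positive and 10.77 to 10.85 in wild-type arrays, against at most 4.12 in total marrow. Markers of plasmacytoid dendritic cells, a blood cell type rich in Irf7 and Bst2, averaged 3.90 to 4.32 over 7 measured genes in the 6 arrays of YFP-positive and wild-type cells and 6.42 and 6.56 in total marrow. Of the 7, Siglech, Ccr9, Spib and Upb1 lay at the level of genes that are not expressed in both sorted groups, and Cox6a2 (means 5.73 in YFP-positive and 5.41 in wild-type arrays), Lag3 (4.21 and 4.07) and Pacsin1 (4.32 and 4.16) lay above it. That level was taken as the 95th percentile of 1035 rows of olfactory receptor genes, which was 4.14 in YFP-positive, 3.90 in wild-type and 3.83 in total marrow arrays. Mx1, Mx2, Oas3 and Cmpk2 lay under it in both sorted groups, and Mx1 and Mx2 also in total marrow. The YFP-negative array ran lower over all rows (median 3.46, against 4.51 to 4.60 in the other 8 arrays) and is compared only after cyclic loess normalization, which puts the 9 arrays on a common scale.

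RefSeq promoters on build GRCm38.p6, 250 bases before to 50 after the start of transcription, were found for 32 of the 42 genes. They were searched on both strands for the ISRE core, which is GAAA, NN (any bases) and GAAA again. The core was found in 16 of the 32, against 3.99% of 27025 genes in the table. These shares describe letters in a window, and a promoter with no match may respond through sequence outside it. 6 promoters are shown, to set the letters beside the changes, with matches in capitals: the 2 genes with the largest rise and the 2 with the largest fall in YFP-positive cells among those with a promoter that can be shown, and Irf7 and Bst2, which mark the group.
Ifit1 (chr19:34640639-34640938, plus strand): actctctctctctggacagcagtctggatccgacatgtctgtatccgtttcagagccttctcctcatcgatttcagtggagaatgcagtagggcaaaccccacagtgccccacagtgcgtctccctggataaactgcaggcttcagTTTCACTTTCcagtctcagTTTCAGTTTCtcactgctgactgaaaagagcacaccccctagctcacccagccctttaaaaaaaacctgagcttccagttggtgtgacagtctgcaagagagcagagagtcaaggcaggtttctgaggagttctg
Ifnar2 (chr16:91372533-91372832, plus strand): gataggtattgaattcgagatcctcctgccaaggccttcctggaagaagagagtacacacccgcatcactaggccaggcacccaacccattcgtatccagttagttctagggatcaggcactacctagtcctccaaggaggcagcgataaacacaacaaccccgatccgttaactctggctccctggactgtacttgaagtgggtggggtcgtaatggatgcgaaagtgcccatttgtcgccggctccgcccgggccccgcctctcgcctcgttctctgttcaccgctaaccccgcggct
Trim30a (chr7:104465144-104465443, minus strand): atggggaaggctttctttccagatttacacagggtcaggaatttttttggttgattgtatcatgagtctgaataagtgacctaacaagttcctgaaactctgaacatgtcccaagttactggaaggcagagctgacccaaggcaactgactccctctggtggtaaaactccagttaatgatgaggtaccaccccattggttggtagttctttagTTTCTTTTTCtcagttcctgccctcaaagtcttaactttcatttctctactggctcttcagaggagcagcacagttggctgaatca
Oas3 (chr5:120777610-120777909, minus strand): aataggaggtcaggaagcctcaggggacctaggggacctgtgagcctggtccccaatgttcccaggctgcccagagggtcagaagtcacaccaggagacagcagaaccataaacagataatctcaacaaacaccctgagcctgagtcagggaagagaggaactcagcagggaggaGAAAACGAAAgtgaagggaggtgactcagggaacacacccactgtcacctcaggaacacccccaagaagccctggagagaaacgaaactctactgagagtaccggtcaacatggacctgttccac
Irf7 (chr7:141266375-141266674, minus strand): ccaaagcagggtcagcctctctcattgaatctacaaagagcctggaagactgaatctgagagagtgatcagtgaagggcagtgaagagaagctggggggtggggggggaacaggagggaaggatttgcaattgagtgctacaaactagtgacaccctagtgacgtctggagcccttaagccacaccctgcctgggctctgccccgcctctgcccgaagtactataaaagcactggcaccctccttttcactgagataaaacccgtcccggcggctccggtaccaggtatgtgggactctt
Bst2 (chr8:71537423-71537722, minus strand): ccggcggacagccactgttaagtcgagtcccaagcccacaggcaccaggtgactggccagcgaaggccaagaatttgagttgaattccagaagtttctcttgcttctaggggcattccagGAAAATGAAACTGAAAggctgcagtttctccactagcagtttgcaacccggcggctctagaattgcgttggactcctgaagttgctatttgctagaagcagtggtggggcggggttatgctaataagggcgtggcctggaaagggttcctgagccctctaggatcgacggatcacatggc
Ifit1 carries 2 copies of the ISRE core within 104 bases before its start, Oas3 1 copy that begins 75 bases before it, and Trim30a, of which 1 of 2 promoters is shown, 1 copy that begins 36 bases before it. In Bst2 the capitals are a single run in which 2 ISRE cores overlap. The core was not found in the windows of Ifnar2 and Irf7. Among measured genes with a promoter, the core was found in 4 of the 6 that rose in either sorted group against total marrow, in 5 of the 8 that fell and in 4 of the 14 called in neither.

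Against total marrow, some interferon response genes were higher in sorted stroma and others lower. The GTPase gene Iigp1, Ifit1, Stat2 and Ifnar2 were higher in both sorted groups, and Oas1a, Oas2, Oas3, Trim30a, Trim25, Cmpk2, Isg20 and Rsad2 were lower in both. A gene is called where limma's adjusted p, over all 21789 rows, is under 0.05. In YFP-positive cells 5 of the 38 genes were called higher and 9 lower, where 11% and 18.5% of all rows were. In wild-type cells 9 were called higher and 8 lower, where 10.4% and 13.9% of all rows were. The median change over the 38 was -0.15 log2 units in YFP-positive cells (0.09 over all rows) and 0.39 in wild-type cells (0.00 over all rows). After cyclic loess the YFP-positive split became 9 up and 9 down, and the wild-type split 13 up and 7 down. On that scale 5990 and 5307 of all 21789 rows were called in either direction. Both comparisons use the same 2 total marrow arrays, so they are not independent of each other. In samples of many cells, fewer cells of a type and less RNA per cell cannot be told apart. Without total marrow replicate 2 the 17 calls of wild-type cells came to 8. Blood cell markers were lower along with the genes that fell: 6 monocyte and macrophage markers averaged 3.74 to 4.31 in the sorted arrays against 7.33 and 7.08 in total marrow, with 6 of 6 called lower in each sorted group, and 9 neutrophil markers averaged 4.04 to 6.79 against 11.71 and 11.66. Their part in the falls was not tested.

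**Figure D1:**
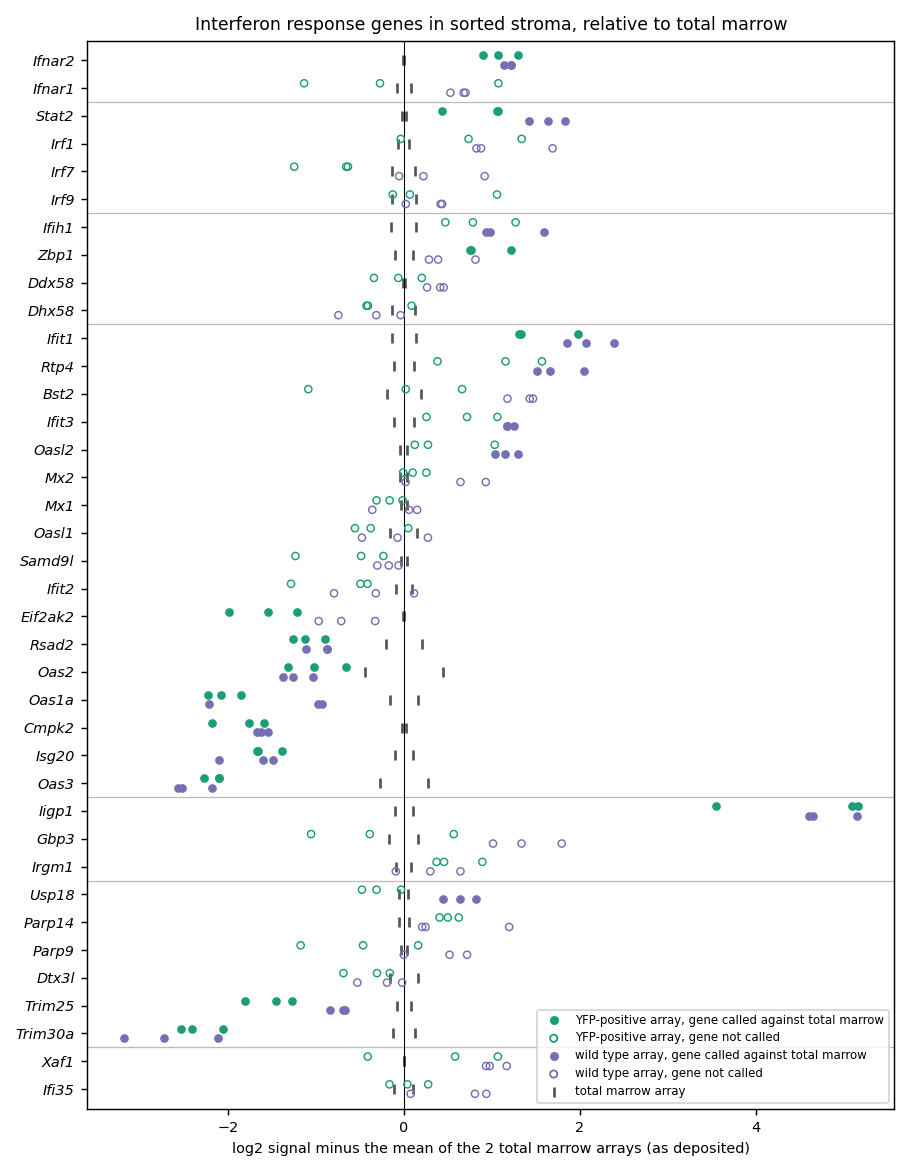
Change of each of the 38 measured genes from the mean of total marrow, on the log2 scale as deposited, with 1 point per array for 3 YFP-positive and 3 wild-type arrays; filled points mark genes called in that comparison, ticks the 2 total marrow arrays and lines the functional groups. Iigp1 stands far to the right in all 6 sorted arrays, and Trim30a, Oas3, Isg20 and Cmpk2 to the left in all 6.

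Both receptor chains had levels well above those of unexpressed genes in stroma. Ifnar2, the chain that binds interferon tightly, stood at 10.12, 10.35 and 9.96 in YFP-positive cells, 10.27, 10.20 and 10.27 in wild-type cells and 9.06 and 9.05 in total marrow. All 6 sorted arrays lay above both marrow arrays, by 1.09 ± 0.14 log2 units (SE, adjusted p = 0.000687) in YFP-positive and 1.19 ± 0.14 log2 units (SE, adjusted p = 0.000422) in wild-type cells. Ifnar1, the signalling partner, varied more. It stood at 8.02, 6.68 and 5.81 in the YFP-positive arrays, 7.48, 7.63 and 7.65 in wild type and 6.86 and 7.03 in total marrow. The YFP-positive arrays span a range that takes in those of total marrow, and the change was called in neither sorted group: -0.11 (adjusted p = 0.891) and 0.64 (adjusted p = 0.521). The genes of the 2 chains lie close together on chromosome 16.

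Of the transcription factors, Stat2 was higher in stroma, Irf1 was higher on 1 of its 2 rows, and Irf7 and Irf9 were not called. Stat2, the subunit particular to type I and type III interferon, stood at 7.27, 7.28 and 6.65 in YFP-positive, 7.86, 7.64 and 8.04 in wild-type and 6.19 and 6.24 in marrow arrays, with no overlap between sorted cells and marrow. It rose by 0.85 ± 0.22 log2 units (SE, adjusted p = 0.0225) and 1.63 ± 0.22 log2 units (SE, adjusted p = 0.001). Its DNA-binding partner Irf9 stood at 6.35, 6.54 and 7.53 in YFP-positive, 6.89, 6.49 and 6.91 in wild-type and 6.33 and 6.61 in marrow arrays, and the ranges overlap. The changes of Irf9 were 0.33 (adjusted p = 0.486) and 0.29 (adjusted p = 0.674). Irf7, which amplifies the response, stood at 6.59, 6.57 and 5.98 in YFP-positive arrays, 7.45, 7.18 and 8.15 in wild type and 7.36 and 7.10 in total marrow. The YFP-positive arrays lay below both marrow arrays and the wild-type arrays around and above them, with changes of -0.85 (adjusted p = 0.0799) and 0.36 (adjusted p = 0.528). Irf1, a factor shared with interferon gamma, differed between its 2 rows. The brighter row changed by 0.68 (adjusted p = 0.252) in YFP-positive and 1.13 (adjusted p = 0.0925) in wild-type cells, and the dimmer one rose by 0.89 ± 0.20 log2 units (SE, adjusted p = 0.0124) and 1.10 ± 0.20 log2 units (SE, adjusted p = 0.00496). The call of Stat2 in YFP-positive cells ended on leaving out any 1 of YFP-positive replicates 1 and 2 and total marrow replicates 1 and 2 (adjusted p = 0.0529 to 0.127) and in a fit of only the 2 groups compared (adjusted p = 0.0536).

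The sensors showed no common direction. Ifih1 (MDA5), which detects long double-stranded RNA, stood at 6.64, 7.44 and 6.95 in YFP-positive, 7.15, 7.10 and 7.76 in wild-type and 6.31 and 6.02 in marrow arrays, and every sorted array was above both of marrow. It rose by 1.17 ± 0.28 log2 units (SE, adjusted p = 0.0198) in wild-type cells and changed by 0.84 (adjusted p = 0.0611) in YFP-positive cells. Zbp1, a sensor of Z-form nucleic acid that can trigger cell death, stood at 7.49, 7.50 and 7.96 in YFP-positive, 7.55, 7.13 and 7.02 in wild-type and 6.64 and 6.84 in marrow arrays. It rose by 0.91 ± 0.21 log2 units (SE, adjusted p = 0.0147) in YFP-positive cells and changed by 0.50 (adjusted p = 0.151) in wild type. Ddx58 (RIG-I) and Dhx58 (LGP2), the other 2 RNA helicases of this family, were not called, with changes between -0.36 and 0.38. The call of Ifih1 ended on leaving out any 1 of total marrow replicates 1 and 2 (adjusted p = 0.0708 to 0.142) and that of Zbp1 on leaving out any 1 of total marrow replicates 1 and 2 (adjusted p = 0.0546 to 0.116).

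Families of effector genes split by family and also within a family. The Ifit proteins bind viral RNA, and their genes lie together on chromosome 19. Ifit1 stood at 7.20, 6.55 and 6.53 in YFP-positive, 7.61, 7.29 and 7.08 in wild-type and 5.36 and 5.09 in marrow arrays, well apart from marrow in all 6 sorted arrays. It rose by 1.54 ± 0.25 log2 units (SE, adjusted p = 0.00275) and 2.10 ± 0.25 log2 units (SE, adjusted p = 0.000521). Ifit3 stood at 7.48, 7.94 and 8.28 in YFP-positive, 8.40, 8.39 and 8.47 in wild-type and 7.33 and 7.11 in marrow arrays, again above marrow in every sorted array. Its rise of 1.20 ± 0.22 log2 units (SE, adjusted p = 0.00556) was called in wild-type cells, and the change of 0.68 (adjusted p = 0.0549) in YFP-positive cells was not. Ifit2, their neighbour, overlapped marrow in 1 wild-type array and was called in neither group, with changes of -0.73 (adjusted p = 0.14) and -0.33 (adjusted p = 0.602). The call of Ifit3 ended on leaving out total marrow replicate 2 (adjusted p = 0.0552).

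The Oas enzymes make the short oligoadenylates that activate RNase L, and Oas1a, Oas2 and Oas3, which lie together on chromosome 5, were all lower in stroma. Oas3 stood at 3.96, 3.79 and 3.97 in YFP-positive and 3.88, 3.50 and 3.55 in wild-type arrays, against 5.79 and 6.33 in total marrow. Since the sorted values are at the level of unexpressed genes, the fall of 2.16 ± 0.19 log2 units (SE, adjusted p = 0.000108) in YFP-positive and 2.42 ± 0.19 log2 units (SE, adjusted p = 5.24e-05) in wild-type cells is a lower limit of its size. Oas1a stood at 4.80, 4.65 and 5.03 in YFP-positive, 5.96, 5.91 and 4.67 in wild-type and 6.73 and 7.04 in marrow arrays, with 1 wild-type array down among the YFP-positive ones. It fell by 2.05 ± 0.38 log2 units (SE, adjusted p = 0.00497) and 1.37 ± 0.38 log2 units (SE, adjusted p = 0.0331). Oas2 stood at 3.84, 4.13 and 4.50 in YFP-positive, 3.89, 3.79 and 4.12 in wild-type and 4.71 and 5.60 in marrow arrays. It fell by 1.00 ± 0.29 log2 units (SE, adjusted p = 0.0366) and 1.22 ± 0.29 log2 units (SE, adjusted p = 0.0183). Its means in the sorted groups, 4.16 and 3.93, lay just above the level of unexpressed genes (4.14 and 3.90). The falls of Oas2 may therefore also be lower limits. The Oas-like genes Oasl1 and Oasl2, which are neighbours, did not follow. Oasl2 stood at 6.38, 7.29 and 6.53 in YFP-positive, 7.41, 7.29 and 7.56 in wild-type and 6.22 and 6.30 in marrow arrays and rose by 1.16 ± 0.26 log2 units (SE, adjusted p = 0.0135) in wild-type cells, with 0.48 (adjusted p = 0.207) in YFP-positive cells. Oasl1 was called in neither group, with changes of -0.29 (adjusted p = 0.423) and -0.09 (adjusted p = 0.887). In YFP-positive cells the call of Oas2 ended on leaving out any 1 of YFP-positive replicates 1 and 2, wild-type replicates 1, 2 and 3 and total marrow replicate 2 (adjusted p = 0.0519 to 0.236) and in a fit of only the 2 groups (adjusted p = 0.0896). In wild-type cells that of Oas1a ended on leaving out any 1 of total marrow replicates 1 and 2 (adjusted p = 0.11 to 0.194) and in a fit of only the 2 groups (adjusted p = 0.0521). That of Oas2 ended on leaving out any 1 of wild-type replicates 1 and 2 and total marrow replicate 2 (adjusted p = 0.0541 to 0.128) and that of Oasl2 on leaving out any 1 of total marrow replicates 1 and 2 (adjusted p = 0.0714 to 0.0958).

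**Figure D2:**
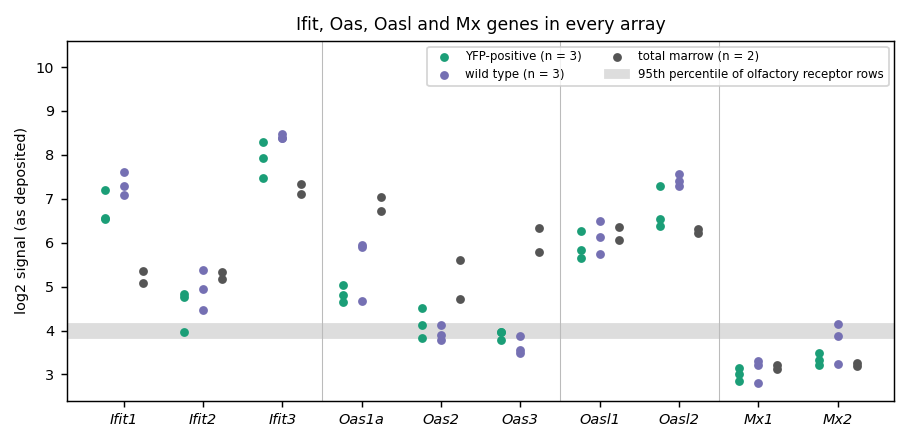
Log2 signal as deposited of the Ifit, Oas, Oasl and Mx genes, with 1 point per array for YFP-positive (n = 3), wild-type (n = 3) and total marrow (n = 2) samples; the grey band spans the 95th percentiles of olfactory receptor rows in the 3 groups. Ifit1 and Ifit3 lie higher in sorted cells, Oas1a, Oas2 and Oas3 higher in total marrow, and Mx1 under the band throughout.

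Among the remaining effectors, 3 that act on RNA or nucleotides were lower in stroma. Isg20, an exonuclease, stood at 6.21, 5.94 and 5.92 in YFP-positive, 6.11, 6.00 and 5.50 in wild-type and 7.70 and 7.50 in marrow arrays. It fell by 1.57 ± 0.20 log2 units (SE, adjusted p = 0.000831) and 1.73 ± 0.20 log2 units (SE, adjusted p = 0.000504). Rsad2 (viperin, which makes a chain-terminating nucleotide) and Cmpk2, a nucleotide kinase, are neighbours on chromosome 12 and were both lower. Rsad2 stood at 4.30, 4.52 and 4.17 in YFP-positive, 4.55, 4.55 and 4.31 in wild-type and 5.22 and 5.63 in marrow arrays and fell by 1.09 ± 0.17 log2 units (SE, adjusted p = 0.00252) and 0.96 ± 0.17 log2 units (SE, adjusted p = 0.00528). Cmpk2 stood at 3.77, 3.17 and 3.59 in YFP-positive, 3.80, 3.69 and 3.73 in wild-type and 5.37 and 5.33 in marrow arrays, at the level of unexpressed genes in stroma, and its falls of 1.84 ± 0.18 log2 units (SE, adjusted p = 0.000159) and 1.61 ± 0.18 log2 units (SE, adjusted p = 0.000337) are lower limits. For each of these 3 genes every sorted array lay below both marrow arrays. The call of Rsad2 in wild-type cells ended on leaving out total marrow replicate 2 (adjusted p = 0.0513).

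Eif2ak2 (PKR), the kinase that halts translation on double-stranded RNA, stood at 4.81, 5.14 and 4.36 in YFP-positive, 5.38, 6.02 and 5.64 in wild-type and 6.35 and 6.34 in marrow arrays, an order without overlap. It fell by 1.58 ± 0.26 log2 units (SE, adjusted p = 0.00278) in YFP-positive cells, and its change in wild type was -0.67 (adjusted p = 0.112). Rtp4, an interferon-induced chaperone of membrane receptors, stood at 8.52, 8.94 and 7.75 in YFP-positive, 8.88, 9.02 and 9.41 in wild-type and 7.48 and 7.25 in marrow arrays, above marrow in all sorted arrays. It rose by 1.74 ± 0.33 log2 units (SE, adjusted p = 0.00652) in wild-type cells, a call that ended on leaving out total marrow replicate 2 (adjusted p = 0.0584), and changed by 1.04 (adjusted p = 0.0514) in YFP-positive cells. Bst2 (tetherin), which holds budding virus at the cell surface, stood at 8.48, 10.23 and 9.59 in YFP-positive arrays, 11.03, 10.99 and 10.74 in wild type and 9.76 and 9.37 in total marrow. Wild-type arrays lay above marrow and YFP-positive arrays on both sides of it, with changes of 1.36 (adjusted p = 0.0651) and -0.13 (adjusted p = 0.835). Samd9l was called in neither group (-0.65 and -0.18). Mx1 and Mx2, which the RefSeq gene table of this strain lists as transcribed pseudogenes, had group means of at most 3.75, under the level of unexpressed genes in all 3 groups, so that the size of a change is not resolved.

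The largest change of the 38 genes from total marrow was that of Iigp1, an immunity-related GTPase that attacks the vacuoles of intracellular parasites. It stood at 9.50, 9.56 and 7.95 in YFP-positive arrays, 9.01, 9.05 and 9.55 in wild type and 4.50 and 4.30 in total marrow. The lowest sorted array was more than 3 log2 units above the higher marrow array. Iigp1 rose by 4.60 ± 0.46 log2 units (SE, adjusted p = 0.000212) in YFP-positive and 4.80 ± 0.46 log2 units (SE, adjusted p = 0.00016) in wild-type cells, which is 24.3-fold and 27.9-fold, and both calls held under each alternative run. Its relative Irgm1 stood at 7.84, 7.41 and 7.32 in YFP-positive, 6.86, 7.25 and 7.59 in wild-type and 7.03 and 6.87 in marrow arrays and was called in neither group, with changes of 0.57 (adjusted p = 0.118) and 0.28 (adjusted p = 0.525). Gbp3, a guanylate-binding protein, stood at 4.56, 5.51 and 3.89 in YFP-positive arrays, 5.96, 6.28 and 6.74 in wild type and 5.11 and 4.78 in marrow. The wild-type arrays lay above marrow and the YFP-positive arrays around it, with changes of 1.38 (adjusted p = 0.0614) and -0.29 (adjusted p = 0.643).

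In the group of ISG15, ubiquitin and ADP-ribosylation genes, the 2 TRIM genes were lower in stroma. Trim30a, a ubiquitin ligase of rodents that damps inflammatory signalling, stood at 6.19, 6.31 and 6.67 in YFP-positive, 5.54, 6.00 and 6.61 in wild-type and 8.60 and 8.84 in marrow arrays. It fell by 2.33 ± 0.30 log2 units (SE, adjusted p = 0.000797) and 2.67 ± 0.30 log2 units (SE, adjusted p = 0.000375), and both calls held under each alternative run. Trim25, a ubiquitin ligase that acts with RIG-I, stood at 6.39, 6.74 and 6.92 in YFP-positive, 7.36, 7.53 and 7.50 in wild-type and 8.11 and 8.27 in marrow arrays, an order without overlap, and fell by 1.51 ± 0.17 log2 units (SE, adjusted p = 0.000395) and 0.73 ± 0.17 log2 units (SE, adjusted p = 0.0171). Usp18, which strips ISG15 from proteins and blocks signalling at Ifnar2, stood at 6.12, 5.84 and 5.67 in YFP-positive, 6.59, 6.97 and 6.79 in wild-type and 6.20 and 6.10 in marrow arrays. It rose by 0.64 ± 0.17 log2 units (SE, adjusted p = 0.0304) in wild-type cells, with -0.27 (adjusted p = 0.268) in YFP-positive cells. Dtx3l and Parp9, whose proteins act as a pair and whose genes are neighbours on chromosome 16, were not called, nor was Parp14, with changes of -0.49 to 0.55. Ifi35 and Xaf1, a pro-apoptotic factor, were not called either, with changes of 0.05 to 1.03. In wild-type cells the call of Trim25 ended on leaving out any 1 of wild-type replicate 1 and total marrow replicates 1 and 2 (adjusted p = 0.057 to 0.124) and after cyclic loess (adjusted p = 0.0846) or quantile normalization (0.139). That of Usp18 ended on leaving out any 1 of wild-type replicates 2 and 3 and total marrow replicates 1 and 2 (adjusted p = 0.0762 to 0.172). Both ended with trend and robust moderation (adjusted p = 0.0572 for Trim25 and 0.0854 for Usp18), and that of Usp18 also with the replicate number as a block.

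YFP-positive and wild-type cells come from the same gate and differ in genotype along with the reporter. No gene of the 38 was called between them by limma, where 0% of the 21789 rows were called higher and 0% lower. Most had lower values on one side, with 30 of the 38 lower in YFP-positive cells and a median difference of -0.43 log2 units, against 0.05 over all rows. At an unadjusted p under 0.05 stood 14 genes lower and 0 higher, where 9.12% of all rows were lower and 5.8% higher. On the deposited values the 3 arrays of each group did not overlap for 9 genes lower and 0 higher in YFP-positive cells. Of all rows, 8.72% were lower without overlap and 13% higher. Over the 16 alternatives the median ran from -0.48 to -0.24 and the number of genes lower from 25 to 31, and the number called stayed at 0. Among rows above the level of unexpressed genes in 2 or more arrays, the medians were -0.44 for 37 genes and -0.08 over all. After cyclic loess they were -0.24 for the 38 genes and 0.01 over all rows, with 26 of the 38 lower.

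The 5 genes with the smallest p were Usp18, Trim25, Irf7, Gbp3 and Stat2. Usp18 differed by -0.91 (95% interval -1.27 to -0.55, adjusted p = 0.11) and Trim25 by -0.78 (-1.14 to -0.42, adjusted p = 0.149). Irf7 differed by -1.21 (-1.85 to -0.56, adjusted p = 0.201) and Gbp3 by -1.67 (-2.60 to -0.75, adjusted p = 0.205). For Stat2 the difference was -0.78 (-1.24 to -0.33, adjusted p = 0.223). For each of the 5, every YFP-positive array lay under every wild-type array on the deposited values, as also for Bst2, Eif2ak2, Ifit3 and Ddx58. After cyclic loess the arrays of Ifit3 and Ddx58 overlapped. Ifit3 stood at 8.40 in YFP-positive replicate 3 and at 8.14, 7.98 and 8.20 in wild-type arrays. Ddx58 stood at 7.190 in YFP-positive replicate 1 and at 7.176 in wild-type replicate 1. Zbp1 (0.41) and Trim30a (0.34) had the most positive differences. Iigp1 (-0.20, 95% interval -1.17 to 0.77) and Ifnar2 (-0.10, -0.39 to 0.18) lay near 0, though the interval of Iigp1 allows a change in either direction.

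Neutrophil markers were higher in YFP-positive cells for 8 of 9 genes, none of them called (median difference 1.27). Their mean log2 signal was 6.79, 6.00 and 4.34 in YFP-positive arrays and 5.28, 4.25 and 4.04 in wild-type arrays. The 7 measured markers of plasmacytoid dendritic cells and the 6 of monocytes and macrophages were also each higher without a call, by medians of 0.16 and 0.30. So were 7 of 7 T and NK cell and 7 of 8 endothelial markers (medians 0.14 and 0.12), 4 of 6 B lineage and 1 of 4 erythroid markers. Many of these genes lay at the level of unexpressed genes, which itself was 4.14 in YFP-positive and 3.90 in wild-type arrays. Of the neutrophil markers, S100a8 stood at 11.01, 9.21 and 4.36 in YFP-positive and 9.29, 5.96 and 4.04 in wild-type arrays, Mpo at 7.80, 8.01 and 6.06 and at 4.19, 4.14 and 4.76, and Ly6g lay at the level of unexpressed genes in both. YFP-positive replicate 3 had the lowest value of its group for 20 of the 38 genes, where it was lowest for 29.6% of all rows, and without it the median difference was -0.29 log2 units. Wild-type replicate 3 had the highest value of its group for 19 of the 38, where it was highest for 32.5% of all rows. The part of these markers and arrays in the lower values of the 38 genes was not tested. The genes were also more variable than most, with a median SD of 0.32 in YFP-positive and 0.27 in wild-type arrays, against 0.21 and 0.15 over all rows. Ifnar1 was the most variable in YFP-positive arrays (SD 1.11, n = 3) and Oas1a in wild-type arrays (SD 0.73, n = 3).

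**Figure D3:**
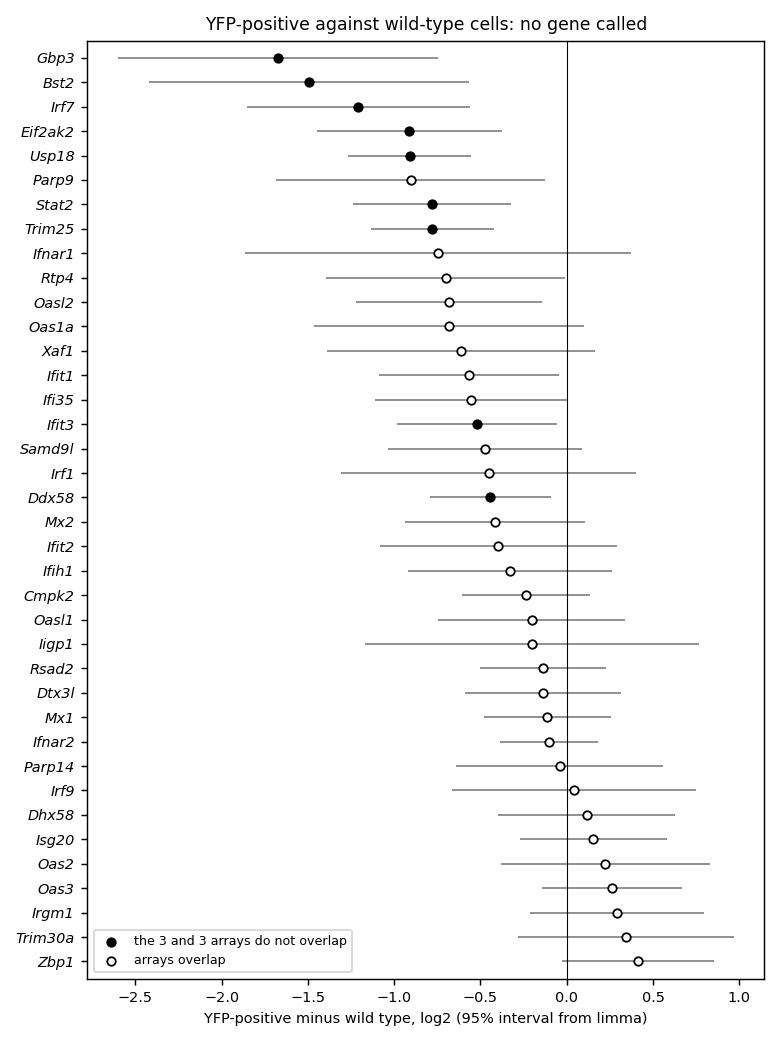
Difference between YFP-positive and wild-type cells (n = 3 each) for the 38 genes, in log2 units as deposited, with the 95% interval from limma. Filled points mark genes whose 2 groups of arrays do not overlap on that scale. 30 of 38 points lie left of 0, from Gbp3 at -1.67 to Zbp1 at 0.41 on the right, and none was called.

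The YFP-negative part of the gate kept the high GTPase and had the lowest levels of Stat2, Irf7 and Irf9 among the sorted arrays. All values here are after cyclic loess, a normalization that assumes that most genes are level between arrays, and the group is 1 array, which the fit takes to scatter like the replicated groups. Against total marrow 7 of the 38 genes were called higher and 7 lower, where 13% of all rows were higher and 13.2% lower. Iigp1 stood at 9.90 in YFP-negative cells and 3.95 and 3.86 in marrow, and Rtp4 at 9.96 and 6.90 and 6.77. They rose by 5.99 ± 0.55 log2 units (SE, adjusted p = 0.000202) and 3.13 ± 0.39 log2 units (SE, adjusted p = 0.00103). The other 5 that rose were Ifit1 (2.39), Ifnar2 (1.71), Ifih1 (1.70), Irgm1 (1.04) and Ddx58 (0.75). The 7 that fell were Trim30a (-3.03), Oas3 (-2.45), Oas1a (-2.18), Cmpk2 (-1.83), Irf7 (-1.38), Oas2 (-1.34) and Eif2ak2 (-1.20). Oas3, Oas2 and Cmpk2 lay at the level of unexpressed genes in the YFP-negative array, so their falls are lower limits. Without total marrow replicate 1 the count of 14 was 9, and without replicate 2 it was 8. The call of Irf7 ended on leaving out any 1 of YFP-positive replicates 1 and 2, wild-type replicate 1 and total marrow replicates 1 and 2 (adjusted p = 0.0518 to 0.14). That of Eif2ak2 ended on leaving out any 1 of total marrow replicates 1 and 2 (adjusted p = 0.0948 to 0.0968), that of Oas1a on leaving out total marrow replicate 2 (adjusted p = 0.075) and that of Oas2 on leaving out any 1 of YFP-positive replicate 2, wild-type replicates 1 and 2 and total marrow replicate 2 (adjusted p = 0.05 to 0.1). Of the rises, that of Ifih1 ended on leaving out any 1 of total marrow replicates 1 and 2 (adjusted p = 0.0577 to 0.0766), that of Irgm1 on leaving out any 1 of wild-type replicate 2 and total marrow replicates 1 and 2 (adjusted p = 0.0554 to 0.111) and that of Ddx58 on leaving out total marrow replicate 1 (adjusted p = 0.0617). On the deposited values the rises of Ifnar2 and Ifih1 came to 0.43 (adjusted p = 0.0648) and 0.27 (adjusted p = 0.536), and after quantile normalization the call of Irf7 ended (adjusted p = 0.0548). The rises of Irgm1 and Ddx58 turned to -0.37 and -0.67 on the deposited values and were not called with arrays only centred on their medians (adjusted p = 0.123 and 0.177) or with trend and robust moderation (0.0525 and 0.0793).

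Against wild-type cells 2 genes were called, both transcription factors and both lower, where 3% of all rows were higher and 1.57% lower. Irf7 stood at 5.50 in the YFP-negative array and 7.24, 6.83 and 7.90 in wild-type arrays and fell by 1.82 ± 0.37 log2 units (SE, adjusted p = 0.044). Stat2 stood at 6.19 and 7.64, 7.28 and 7.79 and fell by 1.38 ± 0.24 log2 units (SE, adjusted p = 0.0305). Irf1 and Irf9 were not called, with differences of -1.44 and -0.95. For Irf7, Stat2, Irf9 and the brighter row of Irf1 the YFP-negative array lay under all 6 other sorted arrays. How often it did so over the 38 genes or over all rows was not counted. A single array often falls outside a group. Of the 38 genes, it lay above all 3 wild-type arrays for 10 and below them for 17, and the share over all rows was not counted. On the dimmer row of Irf1 it lay above 1 wild-type array (6.38 against 6.35, 6.69 and 7.01), with a difference of -0.30 (adjusted p = 0.545). Bst2 stood at 7.92 against 10.75, 10.58 and 10.53, a difference of -2.70 (adjusted p = 0.0541). The call of Stat2 ended on leaving out any 1 of wild-type replicates 1 and 3 and total marrow replicates 1 and 2 (adjusted p = 0.0646 to 0.0761). That of Irf7 ended on leaving out any 1 of YFP-positive replicates 1 and 2, wild-type replicate 1 and total marrow replicates 1 and 2 (adjusted p = 0.0517 to 0.0939).

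Against YFP-positive cells, the other part of the same gate, limma called 0 of the 38 genes, where 2.62% of all rows were higher and 1.36% lower. At an unadjusted p under 0.05 stood 3 higher and 5 lower, where 12.4% and 9.5% of all rows did. The 5 with the smallest p were Rtp4 (1.59, adjusted p = 0.0614), Stat2 (-0.83, adjusted p = 0.108), Ddx58 (0.48, adjusted p = 0.125), Zbp1 (-0.99, adjusted p = 0.151) and Irf1 (-1.26, adjusted p = 0.178). Rtp4 stood at 9.96 in YFP-negative and 8.36, 8.87 and 7.89 in YFP-positive cells, and Zbp1 at 6.60 and 7.34, 7.40 and 8.05. These 5 differences have the single array on 1 side, which lay outside the 3 arrays of the other group in each case. Of the 38 genes, it lay above those 3 arrays for 11 and below them for 12, and the share over all rows was not counted. As deposited, the YFP-negative array gives 27 of the 38 genes as called lower than in YFP-positive cells and 0 as higher, on a distribution that is lower as a whole, where 16522 of all 21789 rows were called in either direction.

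**Figure D4:**
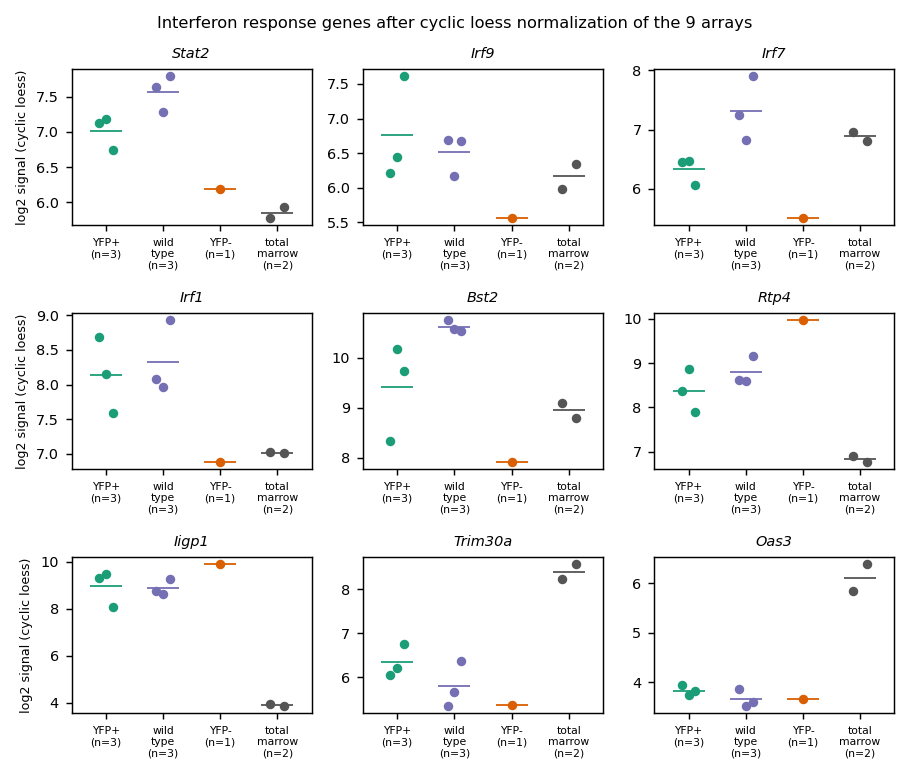
Log2 signal after cyclic loess normalization of 9 of the genes in every array, with a bar at each group's mean (YFP-positive n = 3, wild type n = 3, YFP-negative n = 1, total marrow n = 2); the vertical axes do not start at 0. The YFP-negative array is lowest of the sorted arrays for Stat2, Irf9, Irf7, the brighter row of Irf1 and Bst2, and highest of all arrays for Rtp4 and Iigp1.

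Other genes of the pathway were read from 4 lists, whose counts stand beside the shares of all rows, 11% called higher and 18.5% lower in YFP-positive cells and 10.4% and 13.9% in wild-type cells. Of 15 measured interferon ligands 2 were called higher in YFP-positive cells against marrow, Ifnl2 (0.61) and Ifna14 (0.50), and Ifng was called lower (-0.55). The count of ligands higher is near the share of all rows. The 15 ligands averaged 4.02 to 4.22 in YFP-positive arrays and 3.85 and 3.95 in total marrow. In each YFP-positive array 7 or 8 of the 15 lay at the level of unexpressed genes. That level was 4.14 in YFP-positive and 3.83 in total marrow arrays, so a call alone does not show that a ligand is expressed. In wild-type cells only Ifng was called, by -0.73 (adjusted p = 0.00785). Ifnb1, the first type I interferon made after infection, stood at 2.98, 3.04 and 2.84, the level of unexpressed genes. Among 13 measured receptors, kinases and feedback genes, Socs3, a feedback inhibitor, rose in both groups (2.50 and 2.74), and Il10rb, a chain of the type III receptor, in wild-type cells (0.87). Ptpn6, a phosphatase of blood cells, fell (-3.86 and -4.15), as did Ifnlr1, the other type III chain (-0.77 and -1.20). The interferon gamma receptor chains Ifngr1 and Ifngr2 were not called in either.

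Of 17 measured genes for sensing and further interferon regulatory factors, 1 was higher and 7 were lower in YFP-positive cells, and 1 and 5 in wild-type cells. The rise was that of Tlr3, the endosomal sensor of double-stranded RNA, at 6.65 and 6.82 against 3.69 in marrow (2.96 and 3.13). Irf4, Tlr9, Tlr7 and Irf5, genes of lymphoid and myeloid cells, fell most in YFP-positive cells (-4.41, -2.47, -2.35 and -2.05). Of 47 measured further interferon-stimulated genes, 7 rose and 19 fell in YFP-positive cells, and 9 rose and 16 fell in wild type. The chemokine genes Cxcl9 (5.41 and 5.39) and Cxcl10 (2.55 and 2.78), the secreted glycoprotein gene Lgals3bp (2.53 and 2.70) and the ADP-ribosyltransferase gene Parp12 (1.59 and 1.82) rose most. The Schlafen genes Slfn1 (-5.69 and -5.75) and Slfn4 (-5.17 and -5.29), Ifi27l2a (-4.74 and -4.82) and Slfn2 (-4.34 and -4.45) fell most in YFP-positive cells. The median changes of this list were -0.40 and -0.16, against 0.09 and 0.00 over all rows.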

How the data were processed

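RNA of 9 samples was hybridised to Affymetrix Mouse Gene ST 1.0 arrays after NuGEN Ovation Pico amplification, per the labels. The authors deposited 1 log2 value per transcript cluster and array, made with Affymetrix Expression Console 1.3.1 and RMA, per the submitters' processing notes; whether all arrays were summarised together is not given in the sources used here. Of 35556 rows, 21789 name 1 gene by the platform annotation and were tested, 1621 name several and 12146 none. All 42 symbols matched the RefSeq gene table (GRCm38.p6). A group mean per gene was fitted over the 9 arrays with limma 3.58.1 in R 4.3.3 (lmFit, eBayes; 5 residual degrees of freedom), two-sided, with Benjamini-Hochberg adjustment over all rows and calls at an adjusted p under 0.05. Comparisons with the YFP-negative array used values after limma's cyclic loess over the rows tested. Irf1 is represented by the row with the higher mean. The genes, lists, groupings and tests were chosen with earlier results of these data known. Genes were named by these rules: up to 10 called genes per direction with their values, the receptor chains, Stat2 and Irf9 in any case, or the 5 smallest p where none was called, and up to 4 called genes per direction of each pathway list. Arrays have no counting depth, so their number limits the precision. The fits and the motif search were tested on simulated data.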

Additional observations from a re-analysis of the deposited data

Results flagged for a closer look

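Irf7 and Stat2 are listed because their change from total marrow differed between 2 sorted groups in the fit, where the marrow cancels, so that the test is that of YFP-negative against wild-type cells. After cyclic loess, the change of Stat2 in YFP-negative cells minus that in wild-type cells was -1.38 log2 units (limma, adjusted p = 0.0305), and that of Irf7 -1.82 (adjusted p = 0.044). The YFP-negative side is 1 array in each, with its level on a scale set by the normalization, and both calls ended when total marrow replicate 1 or 2 was left out and with the replicate number as a block. They are therefore given as values of this array. Groups here hold 3 or fewer arrays, so no search for single outlying arrays was made.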

How the results depend on the processing

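Of the calls against total marrow, 11 of 14 in YFP-positive cells, 8 of 17 in wild-type cells and 6 of 14 in YFP-negative cells held under each of the 16 alternatives run for that comparison. Leaving out 1 array gave 11 to 16, 8 to 20 and 8 to 18 calls, the fewest in wild-type and YFP-negative cells without total marrow replicate 2. Some genes not called against total marrow were called under at least 1 alternative. They were 8 of 24 in YFP-positive and 10 of 21 in wild-type cells. Bst2 in wild-type and Rtp4 in YFP-positive cells were each called under 7 of the 16. Between YFP-positive and wild-type cells no alternative gave a call. Against YFP-positive cells, the YFP-negative array gave 0 calls as reported, 1 with arrays centred on their median, 1 with array weights and 0 to 1 with an array left out. Against wild-type cells it gave 2 as reported, 4 with centring, 5 with array weights and 0 to 3 with an array left out. Of all rows, 994 were called as reported, 4458 with centring and 2091 with array weights. On the deposited values, where its whole distribution is lower, it gave 27 calls against YFP-positive cells, 31 against wild type and 28 against total marrow. On those values the number of the 38 genes lower went from 16 to 36, 27 to 37 and 19 to 33 in these comparisons. The genes that turned and were called in either setting were, against YFP-positive cells, Trim25 (-0.68), Ifi35 (-1.12), Irgm1 (-0.95), Cmpk2 (-0.85), Rsad2 (-0.67), Ifnar2 (-0.66), Mx1 (-0.61), Eif2ak2 (-1.01), Ddx58 (-0.60), Usp18 (-1.24) and Isg20 (-0.70). Against wild-type cells these were Rsad2 (-0.81), Ifnar2 (-0.76), Ifit1 (-1.16), Ddx58 (-1.04) and Samd9l (-0.96). Against total marrow these were Stat2 (-1.10), Ifi35 (-1.07), Irgm1 (-0.37), Parp14 (-1.17), Zbp1 (-1.17), Ddx58 (-0.67) and Samd9l (-1.14). Same-numbered samples did not deviate together (correlations of their deviations from the group means of -0.08 to 0.06). With the replicate number as a block the counts were 12, 14 and 10 against total marrow for YFP-positive, wild-type and YFP-negative cells, 0 between YFP-positive and wild type, 0 between YFP-negative and YFP-positive and 0 between YFP-negative and wild type. That block ended the calls of Stat2 and Zbp1 in YFP-positive cells and of Ifih1, Oas1a and Usp18 in wild-type cells against total marrow. The cause of these shifts was not tested. Genes at the level of unexpressed genes (Oas3, Cmpk2, Mx1, Mx2) or just above it (Oas2) limit what the arrays resolve.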
